A study of Mus musculus with 12 samples.

Results

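The Zbtb genes encode transcription factors that join an amino-terminal BTB (POZ) domain to carboxy-terminal Cys2His2 zinc fingers. In this family the zinc fingers read DNA, and the BTB domain forms dimers and recruits corepressors such as Bcor and histone deacetylases, so that most of the well studied proteins act as repressors. Several of them set lymphocyte fate. Zbtb7b (ThPOK) commits thymocytes to the CD4 lineage, Zbtb16 (PLZF) directs innate-like T cells such as NKT cells, and Zbtb32 (ROG or PLZP) restrains activated lymphocytes.

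The genes were taken from an array study of mouse splenic regulatory T cells (Treg), as every gene whose symbol begins with Zbtb and a digit. They numbered 37 of the 22180 genes that had a probe set with exactly 1 symbol. The probe set of each gene was chosen by its measured brightness, the mean log2 value over all 12 arrays, and these means are given as a description only. Brightness decided between probe sets for Zbtb14 alone, whose 3 probe sets averaged 9.34, 8.002 and 4.86; the other 36 genes had 1 probe set each. A further 9 rows named a Zbtb gene together with other genes, among them the only rows for Zbtb11, Zbtb26 and Zbtb8os, and were not used. Of the 37 probe sets, 30 were brighter than the median tested probe set (6.49) and 2, for Zbtb3 and Zbtb46, averaged below log2 6.

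All animals were DEREG mice, in which Foxp3-expressing cells carry the diphtheria toxin receptor, so that diphtheria toxin (DTx) depletes Treg, and all had been sensitised and challenged with ovalbumin to give allergic airways disease. Treg were sorted from spleen into 3 groups of 4 biological replicates, with 1 array each. The iTreg group came from mice depleted with 40 ng/g DTx and then given 2 g/kg IVIg (pooled human IgG for intravenous use), the e_iTreg group from mice given 2 g/kg IVIg without DTx, which the labels call a mixture of endogenous and induced Treg, and the eTreg group from mice given 2 g/kg human serum albumin (HSA) without DTx. The assignment of DTx follows the series' design text. The growth protocol is worded alike for all samples and names DTx before IVIg or HSA, so every comparison rests on the design text. This includes iTreg against e_iTreg, which by that design differ only in DTx. The series as analysed here lacks mice given both DTx and HSA, so what IVIg changed in depleted mice cannot be told apart from what depletion changed without IVIg; iTreg and eTreg differ in both.

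T cell and Treg markers, including Foxp3, were bright and close on every array, with a mean over 8 genes of 11.58 to 11.70 in iTreg, 11.60 to 11.70 in e_iTreg and 11.64 to 11.71 in eTreg. Other signals differed between arrays. The mean of 9 proliferation genes was 9.43 to 10.31 in iTreg, 6.79 to 8.85 in e_iTreg and 6.65 to 8.78 in eTreg. B cell markers (14 genes) were low on e_iTreg replicate 4 (6.12) and eTreg replicates 3 and 4 (6.13 and 6.24), against 6.97 or more on the other 9 arrays. Plasma cell markers (10 genes) averaged 9.46 on iTreg replicate 4, against 8.06 or less on the other 11 arrays, and markers of monocytes, macrophages and dendritic cells (15 genes) 8.12 on it, against 7.32 or less. Plasma cell markers also differed by group, at 7.72 to 9.46 in iTreg, 7.38 to 7.73 in e_iTreg and 7.30 to 7.66 in eTreg. Every iTreg array was thus above every eTreg array in their mean. In limma's test of iTreg against eTreg 1 of the 10 genes rose at an adjusted p under 0.05 and 0 fell. It was Prdm1, with a log2 difference of 1.04 (limma's adjusted p = 0.00364). Jchain differed by 2.62 and did not pass (adjusted p = 0.0551). Whether these signals came from plasma cells or from the Treg themselves was not tested. Sex-linked genes also set arrays apart. Xist was at 5.82 and the mean of 3 Y-linked genes at 9.09 on e_iTreg replicate 4, against 10.26 or more and 8.12 or less on the other 11 arrays, and the Y-linked mean was 4.84 on iTreg replicate 4 and 4.94 on eTreg replicate 3, against 6.54 or more on the other 10. The remaining arrays had both signals, with Xist at 10.26 or more and the Y-linked mean at 6.54 or more. The labels used here give neither sex nor pooling of animals. The part of the sex-linked genes in the results was not tested beyond the covariate and the omission of single arrays given below. In bulk samples, fewer cells of a type and less RNA per cell cannot be told apart.

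RefSeq's promoter table (GRCm38.p6) held 45 start sites for 32 of the 37 genes, with none for Zbtb10 or Zbtb16. The 250 bases before the start site are shown for Zbtb32, the gene that rose most, at the upstream of its 2 listed start sites, and for Zbtb20 and Zbtb39, which fell by the largest amounts among the genes with an entry. Capitals mark matches to any of 10 searched motifs.
Zbtb32, chr7:30598910-30599159, minus strand: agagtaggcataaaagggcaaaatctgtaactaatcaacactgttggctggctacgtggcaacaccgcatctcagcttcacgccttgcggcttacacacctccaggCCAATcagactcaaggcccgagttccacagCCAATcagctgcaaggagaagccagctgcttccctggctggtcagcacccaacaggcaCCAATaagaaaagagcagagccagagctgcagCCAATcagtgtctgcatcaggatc
Zbtb20, chr16:43247034-43247283, plus strand: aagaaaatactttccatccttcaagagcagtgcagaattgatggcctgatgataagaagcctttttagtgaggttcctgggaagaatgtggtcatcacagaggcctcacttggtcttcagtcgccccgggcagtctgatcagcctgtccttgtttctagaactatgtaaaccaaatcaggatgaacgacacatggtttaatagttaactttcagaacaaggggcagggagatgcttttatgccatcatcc
Zbtb39, chr10:127739280-127739529, plus strand: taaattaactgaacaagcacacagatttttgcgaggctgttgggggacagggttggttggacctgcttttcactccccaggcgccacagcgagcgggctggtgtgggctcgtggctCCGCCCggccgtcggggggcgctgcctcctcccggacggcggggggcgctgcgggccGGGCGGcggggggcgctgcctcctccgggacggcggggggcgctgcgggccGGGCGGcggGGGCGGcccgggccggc
All capitals in the Zbtb32 sequence are the CCAAT box (CCAAT), which occurred 4 times, at 144, 114, 56 and 24 bases before the start site; the other Zbtb32 start site had none. All capitals in the Zbtb39 sequence are the GC box (GGGCGG or CCGCCC), found 4 times, and the Zbtb20 window had no match to any of the 10. Over all 32851 windows of this length 33.85% held a CCAAT box and 32.74% a GC box, against 11 and 26 of the 45 Zbtb windows. The other motifs, each searched on both strands, were found as follows. The E-box CACGTG was in 6.02% of all windows and in 4 Zbtb windows, and the ETS motif CCGGAAG in 6.91% and in 8. The NRF1 core GCATGCGC was in 2.26% and in 5, and the cell cycle homology region TTTGAA in 15.99% and in 5. The AP-1 motif TGANTCA and the forkhead motif TGTTTAC were in 6.75% and 3.17% of all windows and in 1 Zbtb window each, and the cyclic AMP response element TGACGTCA and the E2F motif TTTCCCGC in 1.55% and 0.89% and in 0. No motif contains another, but matches of different motifs may overlap. Windows of the same gene may also overlap, as for Zbtb17, Zbtb18 and Zbtb25, so a single match can count in more than 1 window. Zbtb windows held a median of 19 CpG dinucleotides (range 0 to 47), against 6 over all windows, with 5 in the Zbtb32 window, 3 in that of Zbtb20 and 30 in that of Zbtb39.

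In iTreg compared with eTreg, more Zbtb genes fell than rose, and the gene with the largest difference rose. Zbtb32 rose 3.13-fold, while Zbtb10 fell 2.95-fold and Zbtb20 2.01-fold. Of the 37 genes 8 passed limma's test (adjusted p under 0.05 over 23521 probe sets), which is 21.6%, against 9.99% of all probe sets tested. Of these 7 fell (18.9%, against 4.63% of all) and 1 rose, where 5.36% of all probe sets rose. The shares over all probe sets, here and below, were not matched for brightness, and 30 of the 37 genes were brighter than the median tested probe set. The median difference of the 37 genes was -0.09 on the log2 scale, beside -0.01 over all probe sets, and 27 of the 37 values were negative. In 11 of 37 genes the iTreg and eTreg arrays did not overlap, against 14.7% of all probe sets. The 3 arrays where B cell markers were lowest are e_iTreg replicate 4 and eTreg replicates 3 and 4. Without them only replicates 1 and 2 of eTreg remained, and 4 of 37 genes passed (1 higher, 3 lower). The same held with iTreg replicate 4, the array highest in plasma cell markers, left out besides. With the plasma cell marker mean as a covariate 3 passed (1 higher, 2 lower). That mean itself separated iTreg from eTreg, so the covariate partly stands in for the group. Leaving out eTreg replicate 2 or iTreg replicate 2 left 5 past the threshold. The shares over all probe sets under these other settings are not given here, and what lowered the counts was not tested.

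**Figure D1:**
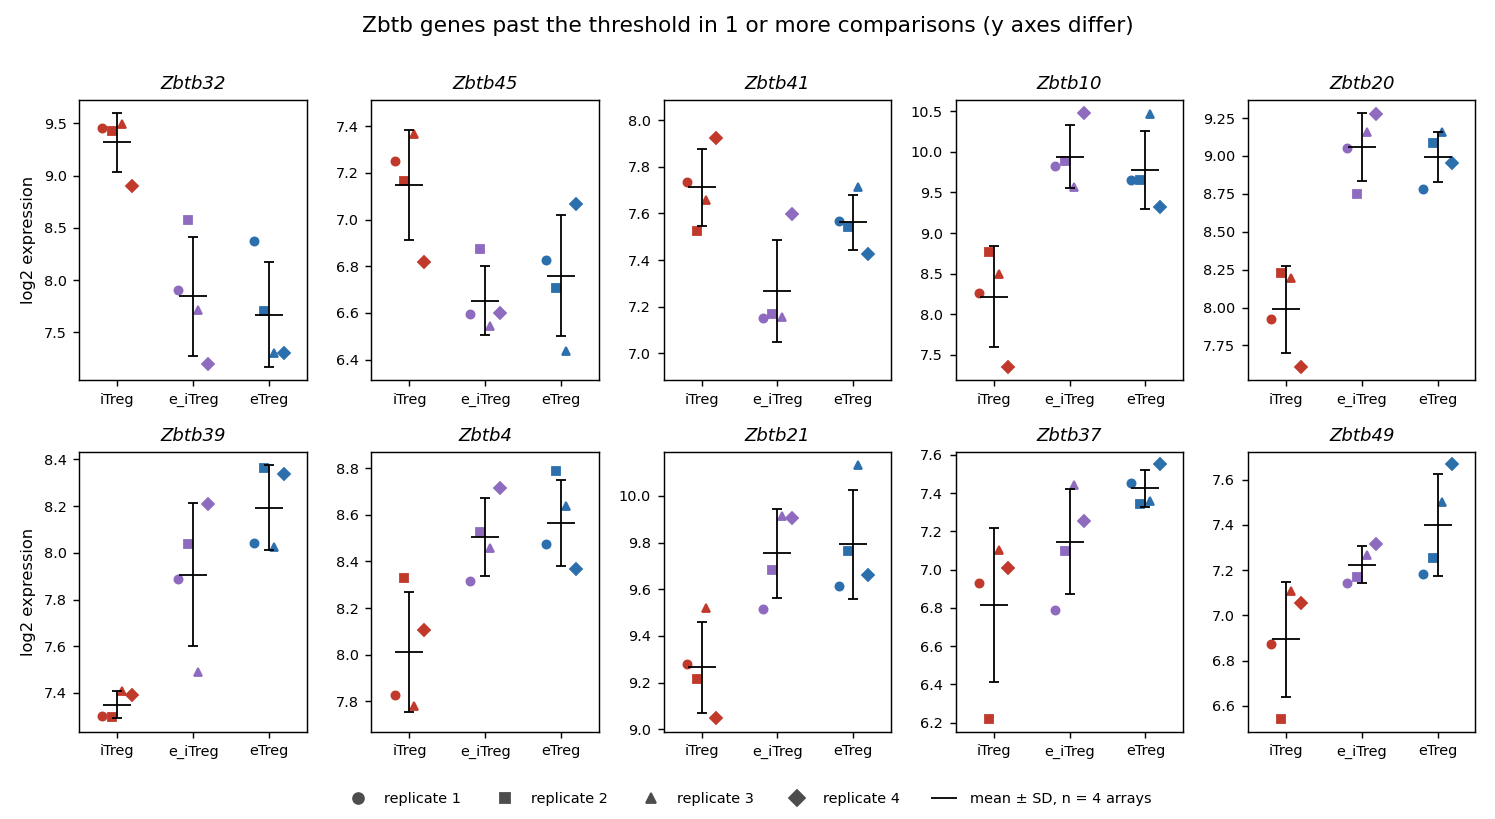
Log2 expression on every array (y axis, log2; ranges differ between panels) of the 10 Zbtb genes that passed in at least 1 comparison, in iTreg, e_iTreg and eTreg (x axis). Symbols are replicates and bars the mean ± SD of 4 arrays; all 4 iTreg arrays of Zbtb32 lie above, and those of Zbtb10, Zbtb20 and Zbtb39 below, the arrays of both other groups.

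Zbtb32 is induced in activated T, B and NK cells and is known in mouse as a repressor that limits T cell cytokine production and proliferation. Its log2 values were 9.45, 9.43, 9.50 and 8.90 in iTreg, 7.91, 8.57, 7.72 and 7.19 in e_iTreg, and 8.38, 7.70, 7.30 and 7.30 in eTreg (replicates 1 to 4). Every iTreg array was above every array of the other groups, and the e_iTreg and eTreg ranges overlapped over most of their length. Against eTreg the difference was 1.65 ± 0.27 (SE, n = 4 arrays per group), with limma's adjusted p = 0.00200. Against e_iTreg it was 1.47 ± 0.27 with limma's adjusted p = 0.00359.

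Zbtb32 was also set against the proliferation genes without any iTreg array, which the data prompted. Over the 8 e_iTreg and eTreg arrays its Pearson correlation with the mean of the 9 proliferation genes was 0.92 (exact two-sided permutation p = 0.00208), and Spearman's rho was 0.83 (exact permutation p = 0.0154). Neither passed after adjustment over all 23521 probe sets (adjusted exact permutation p = 0.153 for r and 0.358 for rho). Without e_iTreg replicate 2 and eTreg replicate 1, the arrays farthest from the median of the proliferation mean, r was 0.74 over 6 arrays. The highest Zbtb32 values of these groups, 8.57 in e_iTreg replicate 2 and 8.38 in eTreg replicate 1, were on the arrays with the highest proliferation means, 8.85 and 8.78. Zbtb18, a repressor known from neuronal development, ran the opposite way over the same 8 arrays, with r = -0.93 (exact permutation p = 0.000769, adjusted over all probe sets p = 0.106), rho = -0.88 (exact permutation p = 0.00724, adjusted p = 0.292) and r = -0.82 without the same 2 arrays. For Zbtb20 r was -0.76 over the 8 arrays but -0.15 without these 2, so that relation rested on them, and for Zbtb10 it was -0.05. Of the 37 correlations 0 passed after adjustment by r or by rho, and 5 had an unadjusted exact permutation p under 0.05 for r (13.5%, against 10.1% of all probe sets). B cell markers varied alongside on these 8 arrays. They too were highest on e_iTreg replicate 2 (7.82) and eTreg replicate 1 (7.87). Zbtb32 was lowest on the 3 arrays lowest in B cell markers, at 7.19 in e_iTreg replicate 4 and 7.30 in eTreg replicates 3 and 4. A correlation of Zbtb32 with B cell markers was not computed.

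**Figure D2:**
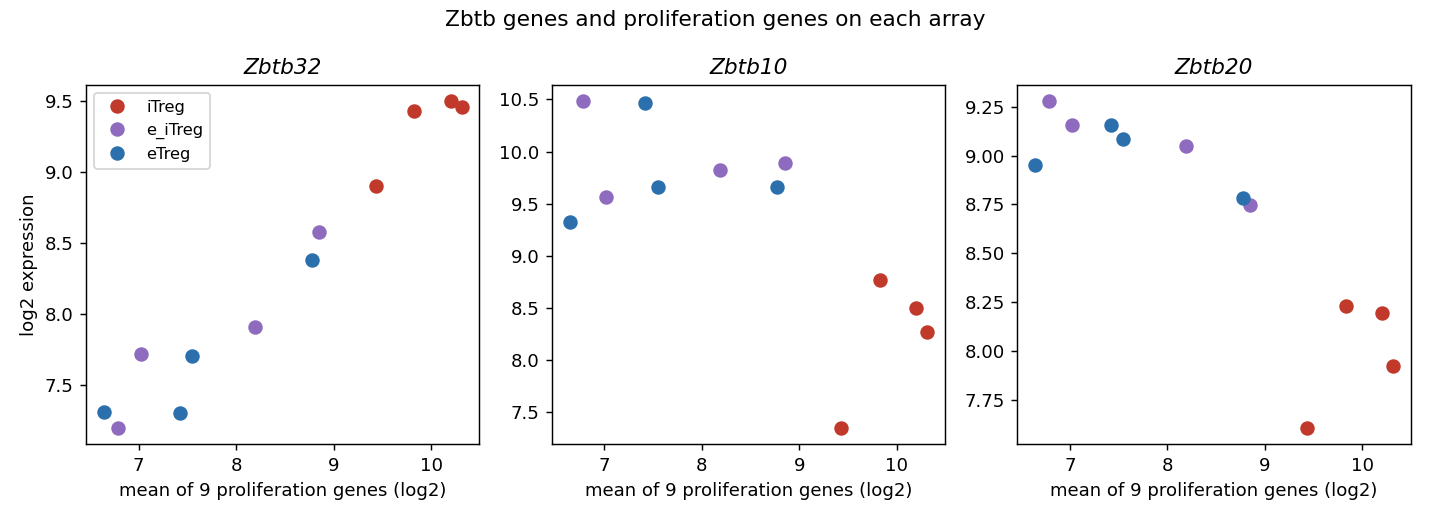
Log2 expression of Zbtb32, Zbtb10 and Zbtb20 (y axis) against the mean log2 value of 9 proliferation genes (x axis) on each of the 12 arrays, coloured by group. The highest Zbtb32 values lie at the highest proliferation means, whereas Zbtb10 on the e_iTreg and eTreg arrays lies between 9.33 and 10.48 at proliferation means of 6.65 to 8.85 and is lower only on the iTreg arrays, where the mean is 9.43 to 10.31.

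Zbtb10, whose human counterpart is known as a repressor of specificity protein genes, fell furthest. Its log2 values were 8.26, 8.76, 8.50 and 7.34 in iTreg, 9.82, 9.89, 9.56 and 10.48 in e_iTreg, and 9.66, 9.66, 10.47 and 9.33 in eTreg. The highest iTreg array lay below the lowest array of either other group, and the lowest value of all was on iTreg replicate 4, the array highest in plasma cell and myeloid markers. The difference was -1.56 ± 0.29 against eTreg (limma's adjusted p = 0.00362) and -1.72 ± 0.29 against e_iTreg (adjusted p = 0.00227). Without iTreg replicate 4 these were -1.27 ± 0.24 and -1.43 ± 0.24 (adjusted p = 0.00601 and 0.00335, limma). With the plasma cell marker mean as a covariate the difference against eTreg was -0.92 ± 0.25 and no longer passed (limma's adjusted p = 0.0638), while that against e_iTreg still did, at -1.21 ± 0.24 (adjusted p = 0.0128). That marker mean was higher on every iTreg array than on every eTreg array, so this fit cannot fully separate it from the group.

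Zbtb20, a repressor known in mouse liver as a silencer of alpha-fetoprotein and needed for long-lived plasma cells, had the smallest adjusted p of the family. Its log2 values were 7.92, 8.23, 8.19 and 7.60 in iTreg, 9.05, 8.75, 9.16 and 9.28 in e_iTreg, and 8.78, 9.09, 9.16 and 8.95 in eTreg. The 4 iTreg arrays were the 4 lowest of the 12, and the other 2 groups overlapped. The differences were -1.01 ± 0.15 against eTreg (limma's adjusted p = 0.00121) and -1.07 ± 0.15 against e_iTreg (adjusted p = 0.000990).

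Zbtb39, for which no role is given here, had the smallest spread within iTreg of the genes that fell. Its log2 values were 7.30, 7.30, 7.41 and 7.39 in iTreg, 7.89, 8.04, 7.49 and 8.21 in e_iTreg, and 8.04, 8.36, 8.03 and 8.34 in eTreg. The iTreg arrays lay close together and below all others, with e_iTreg replicate 3 the nearest to them. The differences were -0.84 ± 0.14 against eTreg (limma's adjusted p = 0.00199) and -0.56 ± 0.14 against e_iTreg (adjusted p = 0.0175). Without e_iTreg replicate 4 the comparison with e_iTreg did not pass, at -0.46 ± 0.14 (limma's adjusted p = 0.0601).

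The other 4 genes that fell against eTreg did so by less. Zbtb4, which binds methylated CpG sites, had log2 values of 7.83, 8.33, 7.78 and 8.11 in iTreg, 8.32, 8.53, 8.46 and 8.71 in e_iTreg, and 8.48, 8.79, 8.64 and 8.37 in eTreg. The difference was -0.55 ± 0.14 (limma's adjusted p = 0.0173), with iTreg replicate 2 just below the lowest eTreg array. Zbtb21, known in human cells as a binding partner of Zbtb14, had 9.28, 9.22, 9.52 and 9.05 in iTreg, 9.52, 9.68, 9.91 and 9.90 in e_iTreg, and 9.61, 9.76, 10.13 and 9.66 in eTreg. The iTreg and eTreg arrays did not overlap, at a difference of -0.53 ± 0.14 (limma's adjusted p = 0.0237).

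Zbtb37 had log2 values of 6.93, 6.22, 7.10 and 7.01 in iTreg, 6.79, 7.10, 7.44 and 7.25 in e_iTreg, and 7.45, 7.34, 7.36 and 7.55 in eTreg. Its difference of -0.61 ± 0.18 against eTreg (limma's adjusted p = 0.0391) had e_iTreg in between, and leaving out any 1 of the 4 eTreg arrays, or iTreg replicate 1 or 2, ended the call (adjusted p up to 0.0998 over these settings). Zbtb49, known in human cells as an activator of the cell cycle inhibitor gene CDKN1A together with ZBTB17, had 6.87, 6.54, 7.11 and 7.05 in iTreg, 7.14, 7.17, 7.27 and 7.32 in e_iTreg, and 7.18, 7.25, 7.50 and 7.67 in eTreg. The iTreg arrays were the 4 lowest of the 12, and the difference against eTreg was -0.51 ± 0.13 (limma's adjusted p = 0.0261). Calls for Zbtb4, Zbtb21, Zbtb37 and Zbtb49 all ended without eTreg replicate 3 or without iTreg replicate 1, which left 4 of 37 genes past the threshold in each case, namely Zbtb10, Zbtb20, Zbtb32 and Zbtb39.

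**Figure D3:**
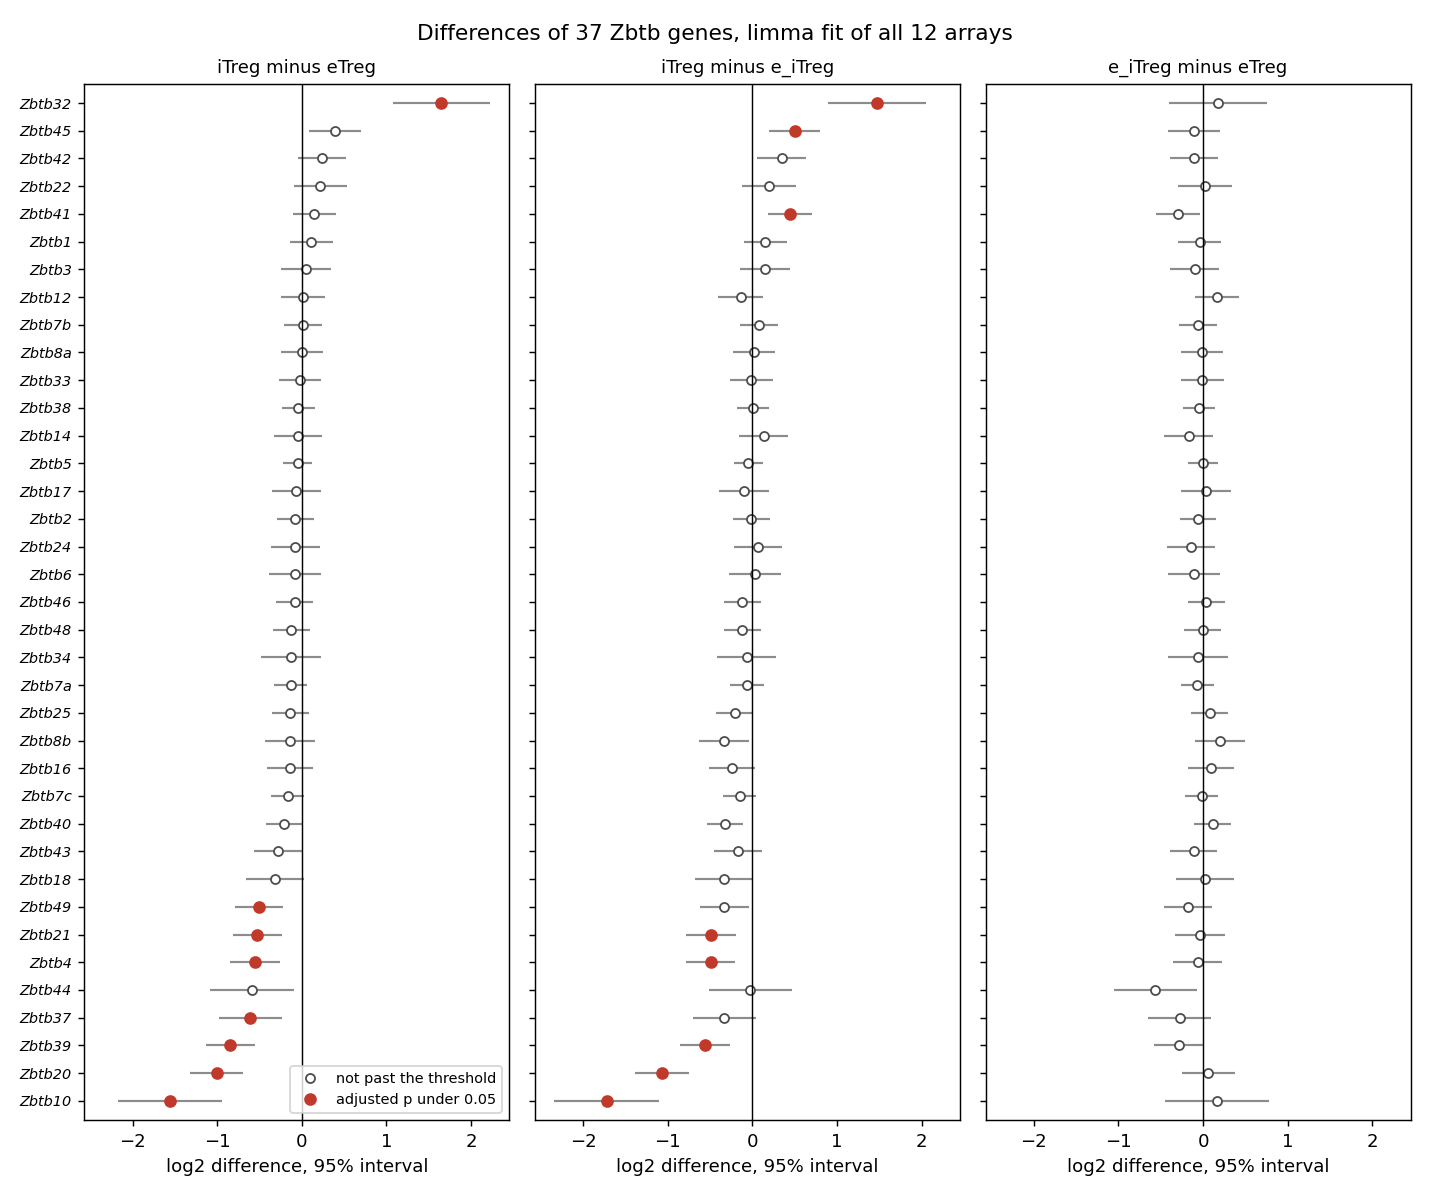
Log2 differences (x axis) of the 37 Zbtb genes (rows) with their 95% intervals in the 3 comparisons, one panel each, from 1 limma fit of all 12 arrays. Filled points have an adjusted p under 0.05: 8, 8 and 0 genes.

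The comparison of iTreg with e_iTreg asks what prior depletion of endogenous Treg changed under IVIg, and it shares the iTreg arrays with the comparison above. Here 3 Zbtb genes rose and 5 fell, but with each array centred on its median the split was 4 and 2. Zbtb32 rose 2.77-fold, and Zbtb10 and Zbtb20 fell 3.30-fold and 2.10-fold. The 8 of 37 genes are 21.6%, against 11.2% of all probe sets; the 3 that rose are 8.11% (6.49% of all) and the 5 that fell 13.5% (4.75% of all). The median difference of the 37 genes and that of all probe sets were both -0.07. In 6 of 37 genes the groups did not overlap, against 16.6% of all probe sets. Leaving out e_iTreg replicate 4 or iTreg replicate 1 left 4 of 37 past the threshold, and leaving out e_iTreg replicate 3 left 5. Without the 3 arrays where B cell markers were lowest 4 passed (2 higher, 2 lower), and 5 (3 higher, 2 lower) without these and iTreg replicate 4. With the difference of Xist and the Y-linked genes as a covariate 3 passed (Zbtb32, Zbtb10 and Zbtb20), while 7 passed against eTreg. Shares over all probe sets under these other settings are not given here, and what lowered the counts was not tested.

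Zbtb4 and Zbtb21 fell by 0.49 ± 0.14 and 0.49 ± 0.14 against e_iTreg (limma's adjusted p = 0.0307 and 0.0327), with overlapping arrays in each. The values of Zbtb37 and Zbtb49, at -0.33 ± 0.18 and -0.33 ± 0.13, did not pass (adjusted p = 0.245 and 0.132).

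The other genes that rose against e_iTreg did not pass against eTreg, and the difference between these comparisons is the one of e_iTreg with eTreg given below. Zbtb45, known in mouse from glial differentiation, had log2 values of 7.25, 7.16, 7.37 and 6.82 in iTreg, 6.59, 6.87, 6.54 and 6.60 in e_iTreg, and 6.83, 6.71, 6.44 and 7.07 in eTreg. Its difference was 0.50 ± 0.14 against e_iTreg (limma's adjusted p = 0.0364) and 0.39 ± 0.14 against eTreg (adjusted p = 0.110). Zbtb41 had 7.74, 7.53, 7.66 and 7.92 in iTreg, 7.15, 7.17, 7.15 and 7.60 in e_iTreg, and 7.57, 7.54, 7.72 and 7.43 in eTreg. Its call against e_iTreg (0.44 ± 0.12, limma's adjusted p = 0.0296) went with low e_iTreg arrays, since 3 of the 4 lay below all arrays of the other groups, and against eTreg the difference was 0.15 ± 0.12 (adjusted p = 0.567). The call ended without e_iTreg replicate 1, 2 or 3, or without iTreg replicate 1, 3 or 4. For Zbtb45 it ended without any 1 of e_iTreg replicates 1, 3 and 4 or iTreg replicates 1, 2 and 3.

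Zbtb40 was just outside the threshold, with non-overlapping arrays. It had log2 values of 7.37, 7.38, 7.60 and 7.44 in iTreg, 7.81, 7.65, 7.87 and 7.76 in e_iTreg, and 7.49, 7.78, 7.56 and 7.80 in eTreg. The difference was -0.32 ± 0.10 against e_iTreg (limma's adjusted p = 0.0519) and -0.21 ± 0.10 against eTreg (adjusted p = 0.244).

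The proliferation genes separated iTreg from the other groups with no overlap, so the group and the proliferation mean largely stand in for each other. With that mean as a covariate 0 of 37 Zbtb genes passed limma's test in either comparison, and over all probe sets 5 passed against eTreg and 24 against e_iTreg. The estimate for Zbtb32 became 0.37 ± 0.22 against eTreg, from a fit in which Zbtb10 stood at -1.68 ± 0.50, Zbtb39 at -0.78 ± 0.24 and Zbtb20 at -0.73 ± 0.24. In the same fit Zbtb49 stood at -0.20 ± 0.21, Zbtb37 at -0.40 ± 0.30, Zbtb21 at -0.36 ± 0.23 and Zbtb4 at -0.40 ± 0.23. Because the proliferation means did not overlap, this fit cannot sort the genes by their relation to cell division. The part of cell division in these differences was not tested.

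The comparison of e_iTreg with eTreg concerns IVIg against HSA in mice that kept their endogenous Treg. None of the 37 genes passed limma's test (0 of all probe sets passed too, or 0%), 2 had an unadjusted p under 0.05, against 7.01% of all probe sets, and in 0 of 37 did the groups fail to overlap, against 4.29%. The differences ran from -0.56 to 0.20, with a median of -0.04, beside 0.03 over all probe sets. The lowest was Zbtb44, with log2 values of 7.26, 6.64, 7.28 and 7.07 in iTreg, 7.09, 7.33, 6.47 and 7.45 in e_iTreg, and 7.40, 7.49, 7.41 and 8.29 in eTreg. Its difference of -0.56 ± 0.23 (limma's adjusted p = 0.704) involved a low array in e_iTreg and a high array in eTreg. Zbtb41 was at -0.29 ± 0.12 and Zbtb39 at -0.29 ± 0.14, while the largest positive values were 0.20 ± 0.14 for Zbtb8b, 0.18 ± 0.27 for Zbtb32 and 0.16 ± 0.29 for Zbtb10. By p in the positive direction Zbtb8b, Zbtb12 (0.16 ± 0.12) and Zbtb40 (0.11 ± 0.10) came first. For Zbtb32 the 95% interval was -0.40 to 0.75.

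**Figure D4:**
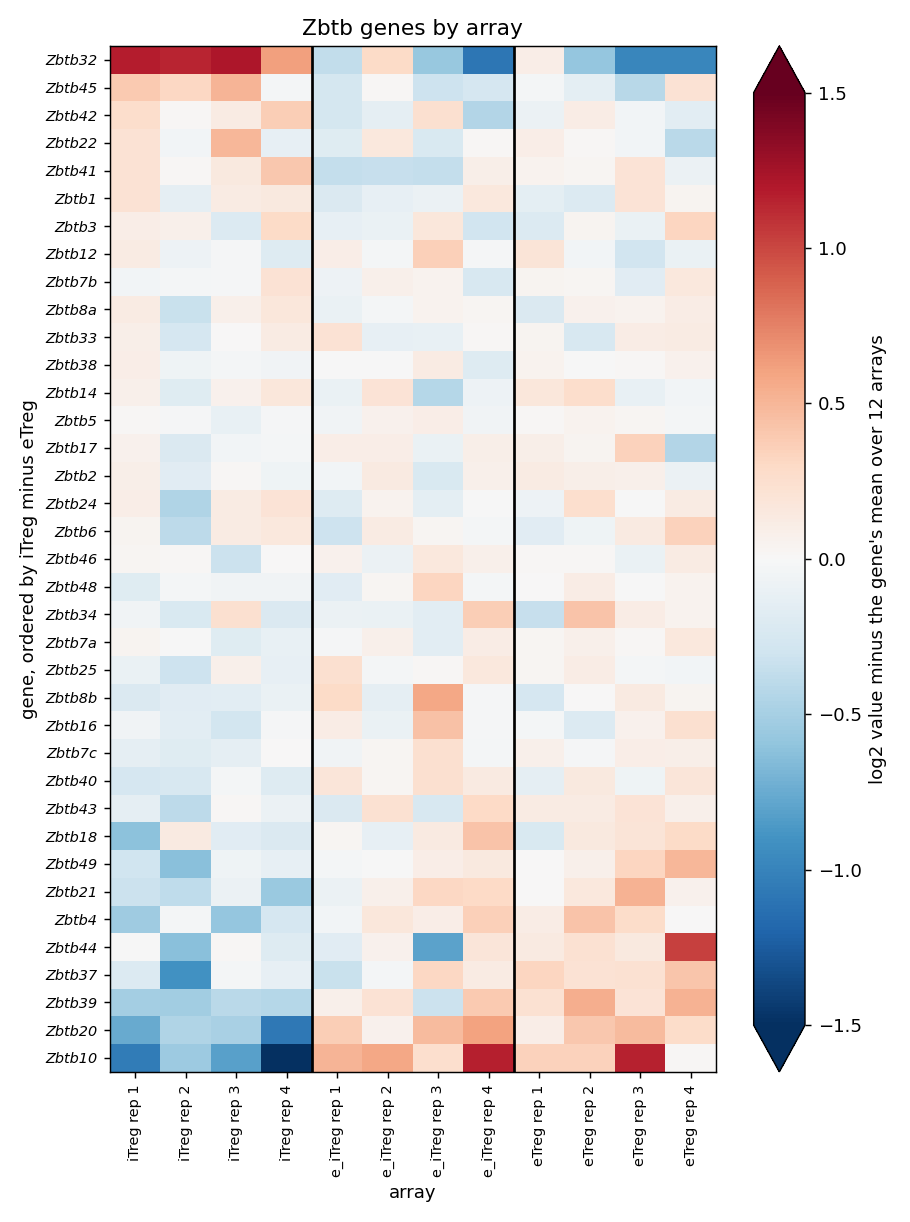
Log2 value of each of the 37 Zbtb genes (rows, ordered by iTreg minus eTreg) on each of the 12 arrays (columns) minus that gene's mean over all arrays; the colour scale is in log2 units and stops at 1.5. The rows at either end, Zbtb32 at the top and Zbtb10, Zbtb20 and Zbtb39 at the bottom, differ between the iTreg columns and the rest.

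Besides the genes given above, several members with known parts in T cells did not pass in any comparison. Zbtb7b, the CD4 lineage factor, had log2 values of 7.40, 7.40, 7.42 and 7.65 in iTreg, 7.36, 7.51, 7.49 and 7.20 in e_iTreg, and 7.48, 7.46, 7.27 and 7.60 in eTreg. The groups overlapped throughout, and its difference against eTreg was 0.02, with a 95% interval of -0.21 to 0.24. Zbtb7a (LRF), which acts with Zbtb7b in CD4 T cells, averaged 7.19 ± 0.10 in iTreg, 7.26 ± 0.12 in e_iTreg and 7.32 ± 0.06 in eTreg (SD, n = 4 each). Its difference against eTreg of -0.13 had a 95% interval of -0.33 to 0.06.

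Zbtb16, the innate-like T cell factor, had log2 values of 6.48, 6.37, 6.25 and 6.50 in iTreg, 6.64, 6.43, 6.96 and 6.51 in e_iTreg, and 6.49, 6.32, 6.59 and 6.77 in eTreg. It was near the median probe set on every array, and its differences of -0.14 ± 0.13 against eTreg and -0.24 ± 0.13 against e_iTreg did not pass (limma's adjusted p = 0.602 and 0.252). Zbtb17 (Miz-1), the partner through which Myc represses genes, averaged 8.19 ± 0.12 in iTreg, 8.28 ± 0.10 in e_iTreg and 8.25 ± 0.33 in eTreg. The wide spread in eTreg came from replicates 3 and 4, at 8.59 and 7.81.

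Zbtb1, needed for lymphocyte development in mouse, averaged 8.50 ± 0.15 in iTreg, 8.35 ± 0.16 in e_iTreg and 8.39 ± 0.19 in eTreg. Zbtb25, its neighbour in RefSeq gene order, averaged 9.43 ± 0.16, 9.64 ± 0.13 and 9.57 ± 0.07 in the same groups. The differences against eTreg were 0.11 ± 0.12 for Zbtb1 and -0.14 ± 0.10 for Zbtb25, neither past the threshold. Of the other neighbouring pairs, Zbtb34 and Zbtb43 were at -0.13 ± 0.16 and -0.28 ± 0.13 against eTreg, and Zbtb8a and Zbtb8b at 0.00 ± 0.12 and -0.14 ± 0.14.

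Zbtb33 (Kaiso) and Zbtb38, which bind methylated DNA as Zbtb4 does, were close in all groups. Zbtb33 averaged 7.84 ± 0.17 in iTreg, 7.85 ± 0.16 in e_iTreg and 7.86 ± 0.17 in eTreg, and Zbtb38 7.61 ± 0.08, 7.60 ± 0.13 and 7.65 ± 0.03. Against eTreg their 95% intervals were -0.27 to 0.23 for Zbtb33 and -0.23 to 0.15 for Zbtb38, while that of Zbtb4 was -0.85 to -0.26. Zbtb24, whose human counterpart is mutated in an immunodeficiency with DNA hypomethylation, averaged 7.58 ± 0.30 in iTreg, 7.51 ± 0.11 in e_iTreg and 7.66 ± 0.14 in eTreg. Zbtb46, a marker of conventional dendritic cells, was dim in all groups, at 5.87 ± 0.17 in iTreg, 5.99 ± 0.10 in e_iTreg and 5.96 ± 0.09 in eTreg, and was not higher on iTreg replicate 4 (5.94), the array highest in myeloid markers.

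**Figure D5:**
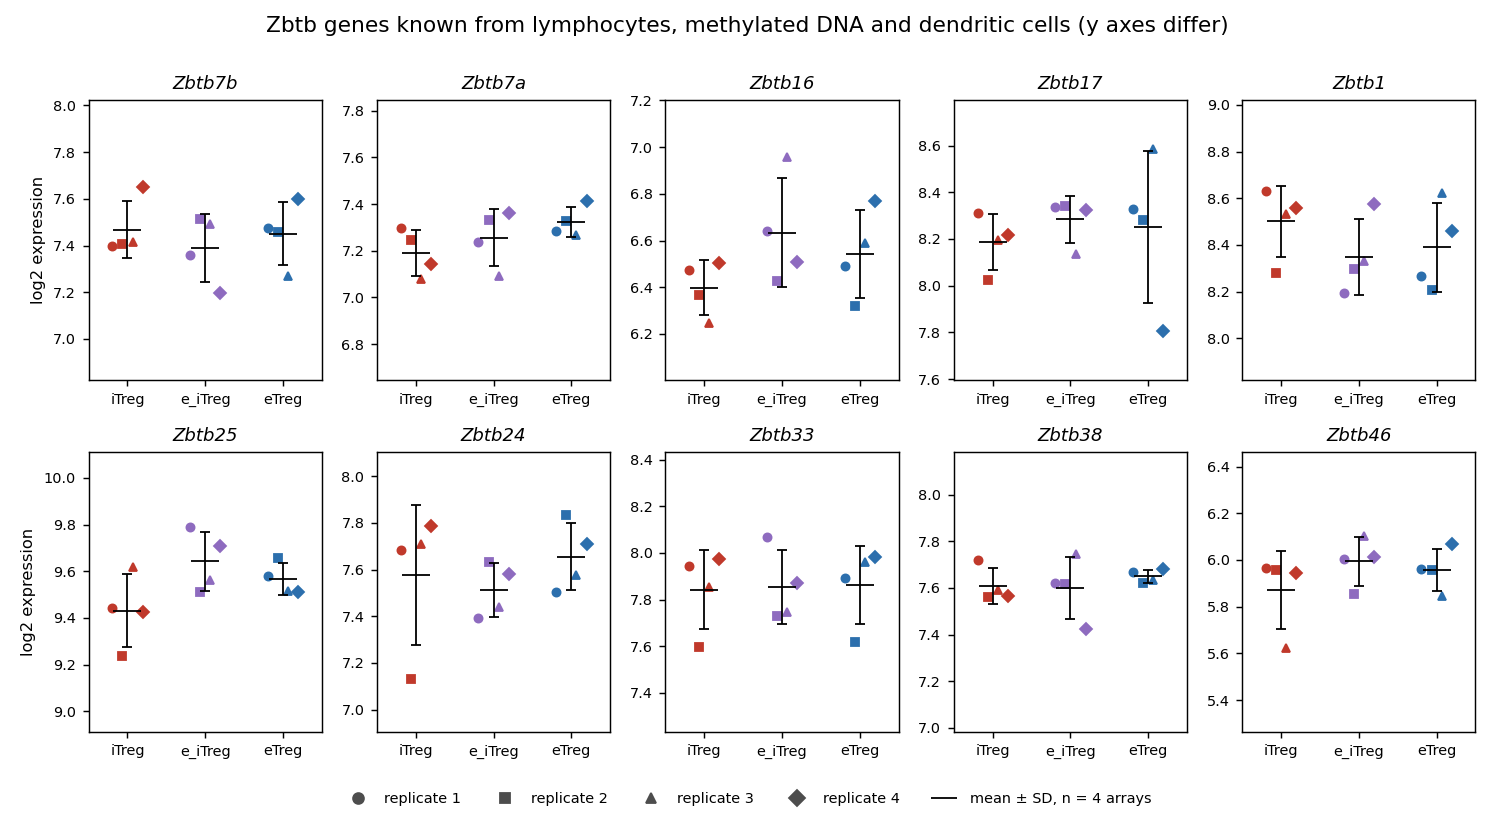
Log2 expression on every array (y axis, log2; ranges differ between panels) of 10 Zbtb genes known from lymphocytes, methylated DNA or dendritic cells, in iTreg, e_iTreg and eTreg (x axis). Symbols are replicates and bars the mean ± SD of 4 arrays; the groups overlap in each of the 10 panels.

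In all, 29 genes did not pass against eTreg, with differences from -0.59 to 0.39 and 95% intervals reaching at most 0.49 to either side of the estimate. Among these 29 the iTreg and eTreg arrays did not overlap for Zbtb44 (-0.59 ± 0.23), Zbtb43 (-0.28 ± 0.13) and Zbtb48 (-0.12 ± 0.10), the last known in human cells to bind telomeric repeats. Zbtb42 at 0.24 ± 0.13 and Zbtb22 at 0.22 ± 0.15 had the largest positive values after Zbtb45, and Zbtb18 and Zbtb40 had -0.31 ± 0.16 and -0.21 ± 0.10. A further 10 genes, Zbtb2, Zbtb3, Zbtb5, Zbtb6, Zbtb7c, Zbtb8a, Zbtb8b, Zbtb12, Zbtb14 and Zbtb34, had values between -0.17 and 0.05 against eTreg. Zbtb5 had the smallest standard error of the 37 genes, with group means of 6.03 ± 0.06 in iTreg, 6.08 ± 0.08 in e_iTreg and 6.08 ± 0.03 in eTreg. For Zbtb14, the probe sets of middle and lowest brightness were at 0.04 ± 0.12 and -0.57 ± 0.19 against eTreg (limma's adjusted p = 0.9003 and 0.0751), beside -0.04 ± 0.13 for the brightest.

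The gene lists below were chosen with earlier results of these data known, so their counts are a description only. BTB zinc finger genes that carry other symbols were set beside the Zbtb genes (9 measured). Of them 1 fell and 0 rose against eTreg, with a median of -0.05, and the same counts held against e_iTreg, with a median of -0.11. The gene was Bcl6, a transcriptional repressor that directs follicular helper T cells. Its mean log2 value was 7.20 in iTreg, 8.12 in e_iTreg and 8.01 in eTreg. Its difference against e_iTreg was -0.92 ± 0.14 (limma's adjusted p = 0.00129). Patz1 at -0.18 ± 0.10, Gzf1 at -0.30 ± 0.11 and Hic2 at -0.23 ± 0.14 against eTreg did not pass.

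Corepressors and the ubiquitin ligase scaffold Cul3, which BTB proteins bind, were measured for 18 of 21 listed genes. Against eTreg 0 of 18 passed limma's test, with a median of -0.07. Against e_iTreg 1 rose and 2 fell, with a median of -0.01. The histone deacetylase Hdac1 rose by 0.38 ± 0.11 (limma's adjusted p = 0.0436), and Hdac4 and Hdac5, of another class, fell by 0.38 ± 0.11 and 0.51 ± 0.11 (adjusted p = 0.0316 and 0.00689). In the same comparison with e_iTreg, Cul3 was at -0.07 ± 0.11 and Hdac3 at 0.27 ± 0.12, neither past the threshold.

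Genes around Zbtb7b and Zbtb16 were read the same way. Of 18 measured CD4 and CD8 lineage factors 2 rose and 3 fell against eTreg (median -0.01), and 1 rose and 2 fell against e_iTreg (median -0.04). Runx3, the CD8 lineage factor that Zbtb7b antagonises in thymocytes, rose by 0.87 ± 0.13 against eTreg (limma's adjusted p = 0.00137) and by 0.66 ± 0.13 against e_iTreg (adjusted p = 0.00508). Its partner Cbfb rose by 0.40 ± 0.11 against eTreg (adjusted p = 0.0373), and the T cell factors Lef1, Bcl11b and Satb1 fell by 0.54 ± 0.12, 0.43 ± 0.11 and 0.65 ± 0.18. Cd8b1 was at 0.15 against eTreg with adjusted p = 0.759 in limma's test, so the CD8 chain did not pass beside Runx3.

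The 15 genes listed for innate-like T cells were also chosen with earlier results of these data known, so their counts are a description only. Of them 6 rose and 0 fell against eTreg (median 0.20), and 7 rose and 1 fell against e_iTreg (median 0.01). Zbtb16 itself did not pass. Over all probe sets 5.36% rose and 4.63% fell against eTreg (median -0.01), and 6.49% rose and 4.75% fell against e_iTreg (median -0.07); the same shares and medians stand beside the other lists. The innate-like T cell genes with the smallest p against eTreg were Tbx21 (1.51 ± 0.15), Cxcr6 (1.51 ± 0.23), the adaptor gene Sh2d1a (0.68 ± 0.12) and Il4 (1.04 ± 0.19). Icos (1.03 ± 0.21) and Il18r1 (0.77 ± 0.23) also rose. Negative values that did not pass were those of Slamf1 (-0.29 ± 0.12), Cd160 (-0.25 ± 0.10), Klrb1c (-0.20 ± 0.15), Fyn (-0.19 ± 0.10) and Egr2 (-0.12 ± 0.13). The gene that fell against e_iTreg was Cd160, at -0.35 ± 0.10 (limma's adjusted p = 0.0343). Of 15 Myc and Miz-1 partners and targets 0 rose and 4 fell against eTreg (median -0.33), and 0 rose and 2 fell against e_iTreg (median -0.22), where 4.63% and 4.75% of all probe sets fell. Those that fell against eTreg were Mxd4, a Max-binding antagonist of Myc (-0.71 ± 0.12), the survival gene Bcl2 (-0.86 ± 0.16), the ubiquitin ligase Huwe1 (-0.42 ± 0.11) and Myc itself (-0.40 ± 0.12, limma's adjusted p = 0.0486). Cdkn1a, the cell cycle inhibitor gene that Zbtb17 activates, was just outside the threshold at 0.75 ± 0.23 against eTreg (adjusted p = 0.0507).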

How the data were processed

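Expression was measured on Affymetrix mouse gene arrays (12 arrays, 3 groups of 4), from 2 ng of RNA amplified before hybridisation. The deposited values are log2 expression per probe set, made by the authors with RMA in oligo, per the submitters' processing notes; versions are not given in the sources used here. Probe sets were named from the platform annotation: of 41345, 23521 had 1 symbol and were tested, 1814 had several and 16010 had none.

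One limma model (3.58.1, R 4.3.3; lmFit, eBayes) of all 12 arrays gave the 3 differences, with Benjamini-Hochberg adjustment over the 23521 probe sets and a threshold of 0.05. It was tested on simulated data. Standard errors and 95% intervals are limma's; the number of arrays limits the precision. All 37 genes are named. The members, gene lists and tests were chosen with earlier results of these data known; the motifs, the proliferation correlations and the exclusion of 4 arrays were chosen after seeing the values. Replicate numbers were not used as pairs. Arrays record no strand or depth.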

Additional observations from a re-analysis of the deposited data

Results flagged for a closer look

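In 10 of 111 groups of 4 arrays (37 genes in 3 groups) the highest or lowest array stood far from the other 3, by the gap to the nearest of them relative to the whole range of the group; chance gives this in about 1 in 20 groups. Among genes that passed a test, Zbtb32 was low on iTreg replicate 4, at 8.90 against 9.43 on the nearest iTreg array, and its difference against eTreg without that array was 1.79. Zbtb41 was high on e_iTreg replicate 4 (7.60, nearest 7.17), and Zbtb45 on e_iTreg replicate 2 (6.87, nearest 6.60). Both of these genes passed only against e_iTreg, the group that holds the distant array. In each the distant array lay on the side of iTreg, and the call held without it.

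The other 7 were in genes that passed no test. Zbtb44 was high on eTreg replicate 4 (8.29, nearest 7.49), and Zbtb34 on e_iTreg replicate 4 (6.43, nearest 5.97). Zbtb7b was high on iTreg replicate 4 (7.65, nearest 7.42). Zbtb24 was low on iTreg replicate 2 (7.13, nearest 7.69), Zbtb46 on iTreg replicate 3 (5.62, nearest 5.94) and Zbtb48 on iTreg replicate 1 (7.31, nearest 7.43). Zbtb17 was low on e_iTreg replicate 3 (8.13, nearest 8.33).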

How the results depend on the processing

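Each count, and each gene past the threshold, was recomputed under 32 other settings; 7 dim genes that filters on low values remove have 30 or 31. For the count of genes past the threshold, 8 for iTreg against eTreg and 8 for iTreg against e_iTreg, testing all rows of the table gave 5 and 4, a fold of at least 1.5 gave 5 and 3, the plasma cell marker mean as a covariate 3 and 4, leaving out the 3 arrays where B cell markers were lowest 4 and 4, and leaving out these and the array highest in plasma cell markers, chosen after seeing the data, 4 and 5. The proliferation mean as a covariate gave 0 and 0, and a covariate of Xist minus Y-linked genes 7 and 3. Leaving out 1 array gave 4 to 8 genes in both. Apart from the proliferation covariate, counts over all probe sets are not given for these settings. Whether a loss of calls was particular to the Zbtb genes was not tested. For e_iTreg minus eTreg the count was 0 under all 32. With the replicate block, the counts were 8, 7 and 0; same-numbered arrays correlated at -0.15 to 0.24, over 0.1 in 3 of 12 pairs, so the numbers were not taken as pairs. Over the 16 gene results past the threshold no value changed sign under any setting. Zbtb32 and Zbtb20 in both comparisons, Zbtb39 against eTreg and Zbtb10 against e_iTreg lost their call under the proliferation covariate alone; Zbtb10 against eTreg also did under the plasma cell covariate. The calls for Zbtb37, Zbtb21, Zbtb4, Zbtb49, Zbtb41, Zbtb45, and Zbtb39 against e_iTreg, ended under 8 to 16 settings each. The cause was not tested. Replicates numbered 4 a group, and dim probe sets such as Zbtb3 and Zbtb46 give little signal over background.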
